A study of Rattus norvegicus with 24 samples.

Results

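The genes described here are 9 members of the insulin-like growth factor (IGF) system: the ligands Igf1 and Igf2, the receptor Igf1r, and the binding proteins Igfbp2, Igfbp3, Igfbp4, Igfbp5, Igfbp6 and Igfbp7. They were chosen by name from a gene-level count table of 21767 symbols. All 9 were in it, and all 9 were among the 14303 symbols that passed a filter on low counts. The RNA was polyadenylated RNA of heart muscle cells isolated from newborn Sprague-Dawley rats and grown in serum-containing medium. The 24 libraries form 8 groups of 3. In 4 groups the cells received doxorubicin, an anthracycline cancer drug that poisons topoisomerase II and damages the heart. These 4 groups carried both mimics, the miR-222-3p mimic, the miR-455-3p mimic or a negative control mimic. The other 4 groups carried the same mimics and received the control treatment, which the series text names as vehicle and which is called no doxorubicin here. All 8 groups were transfected, at 5 nM of each mimic, so there were no untransfected cells. By the labels, the groups with both mimics thus received more mimic in total than the single and control mimic groups. Treatment began 48 h after transfection and lasted 24 h. The dose of doxorubicin is 4 uM in the sample protocol and differs in the series text, which gives it as 4 mM. The question of the series is whether the mimics, alone and together, protect the cells from the drug.

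IGF1 and IGF2 are secreted growth factors that activate the receptor tyrosine kinase IGF1R, which signals through insulin receptor substrates to phosphoinositide 3-kinase and AKT and favours growth and survival of heart muscle cells. The binding proteins are secreted as well and hold the ligands, so that they can store them, carry them or keep them from the receptor. IGFBP6 prefers IGF2, and IGFBP7 binds the ligands only weakly. A microRNA mimic is a short double-stranded RNA whose guide strand is loaded into Argonaute and represses messenger RNAs that pair with its seed.

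The guide strands of both mimics are shown because every group is defined by them. They are the mature rat sequences in RefSeq (GRCr8), with the seed, bases 2 to 8, in capitals, and the seeds differ.
rno-miR-222-3p: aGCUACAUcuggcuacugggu
rno-miR-455-3p: gCAGUCCAcgggcauauacacu
The miR-222-3p sequence lies at chrX:6022682-6022702 on the plus strand and the miR-455-3p sequence at chr5:81704881-81704902 on the plus strand. Sites for these seeds in the transcripts of the 9 genes were not analysed here.

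Each library held 17311955 to 25750311 counts in total, with 10 counts or more for 11469 to 13524 of its genes. Mitochondrially encoded transcripts took 5.54% to 38.2% of the counts. The fewest genes were found in replicate 1 of doxorubicin with the control mimic, replicate 2 of doxorubicin with both mimics, replicate 1 of the control mimic and replicate 3 of both mimics without doxorubicin. Calls that change without these 4 libraries are given beside the results. More genes were called in general without them, for doxorubicin 37.9% of all genes with the control mimic, 33.9% under miR-222, 38.3% under miR-455 and 32.9% under the pair. Between libraries of a group the chi-square of the counts per degree of freedom was 5.69 to 9.72 for 6 pairs and 50.5 to 558 for the other 18, and the labels do not say whether close pairs shared a culture. They name no animals, days or batches either, so the p-values rest on the spread between these libraries alone, which may be technical. Markers of heart muscle cells were abundant, with 9 of 10 listed markers in the table and 21900 to 67500 CPM in sum. CPM are counts per 1000000 counts of the library, here too on library sizes scaled by the trimmed mean of M-values. Fibroblast markers (9 of 10 in the table) summed to 14800 to 52900 CPM, and those of smooth muscle and pericytes (10 of 10) to 1510 to 5130 CPM. Endothelial markers (9 of 10) summed to 33.4 to 86.0 CPM and macrophage and leukocyte markers (9 of 10) to 8.86 to 27.0 CPM. The defining markers Cdh5 of endothelium, Ptprc of leukocytes and C1qa of macrophages stayed under 1 CPM in all 24 libraries. So did 2 of the 9 endothelial markers and 4 of the 9 macrophage and leukocyte markers, these genes included. The other markers of both lists reached 1 CPM in some library.

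The values below are CPM on library sizes scaled by the trimmed mean of M-values, in the order of replicates 1, 2 and 3 of a group. The scaling factors were 0.572 to 1.008 in the doxorubicin libraries and 1.041 to 1.366 in the untreated ones. The scaling thus raised treated values relative to untreated ones, for markers as well as members. A fit on unscaled library sizes was not among the alternatives. CPM is not divided by transcript length, so levels are compared between groups for 1 gene and never between genes. Fold changes are log2 fold changes ± SE from edgeR's quasi-likelihood F test over all 24 libraries, with 3 libraries in each group. A gene is said to rise or fall where its Benjamini-Hochberg adjusted p over 14303 genes was under 0.05. In RNA of whole cultures, fewer cells of a type and less RNA per cell cannot be told apart.

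**Figure D1:**
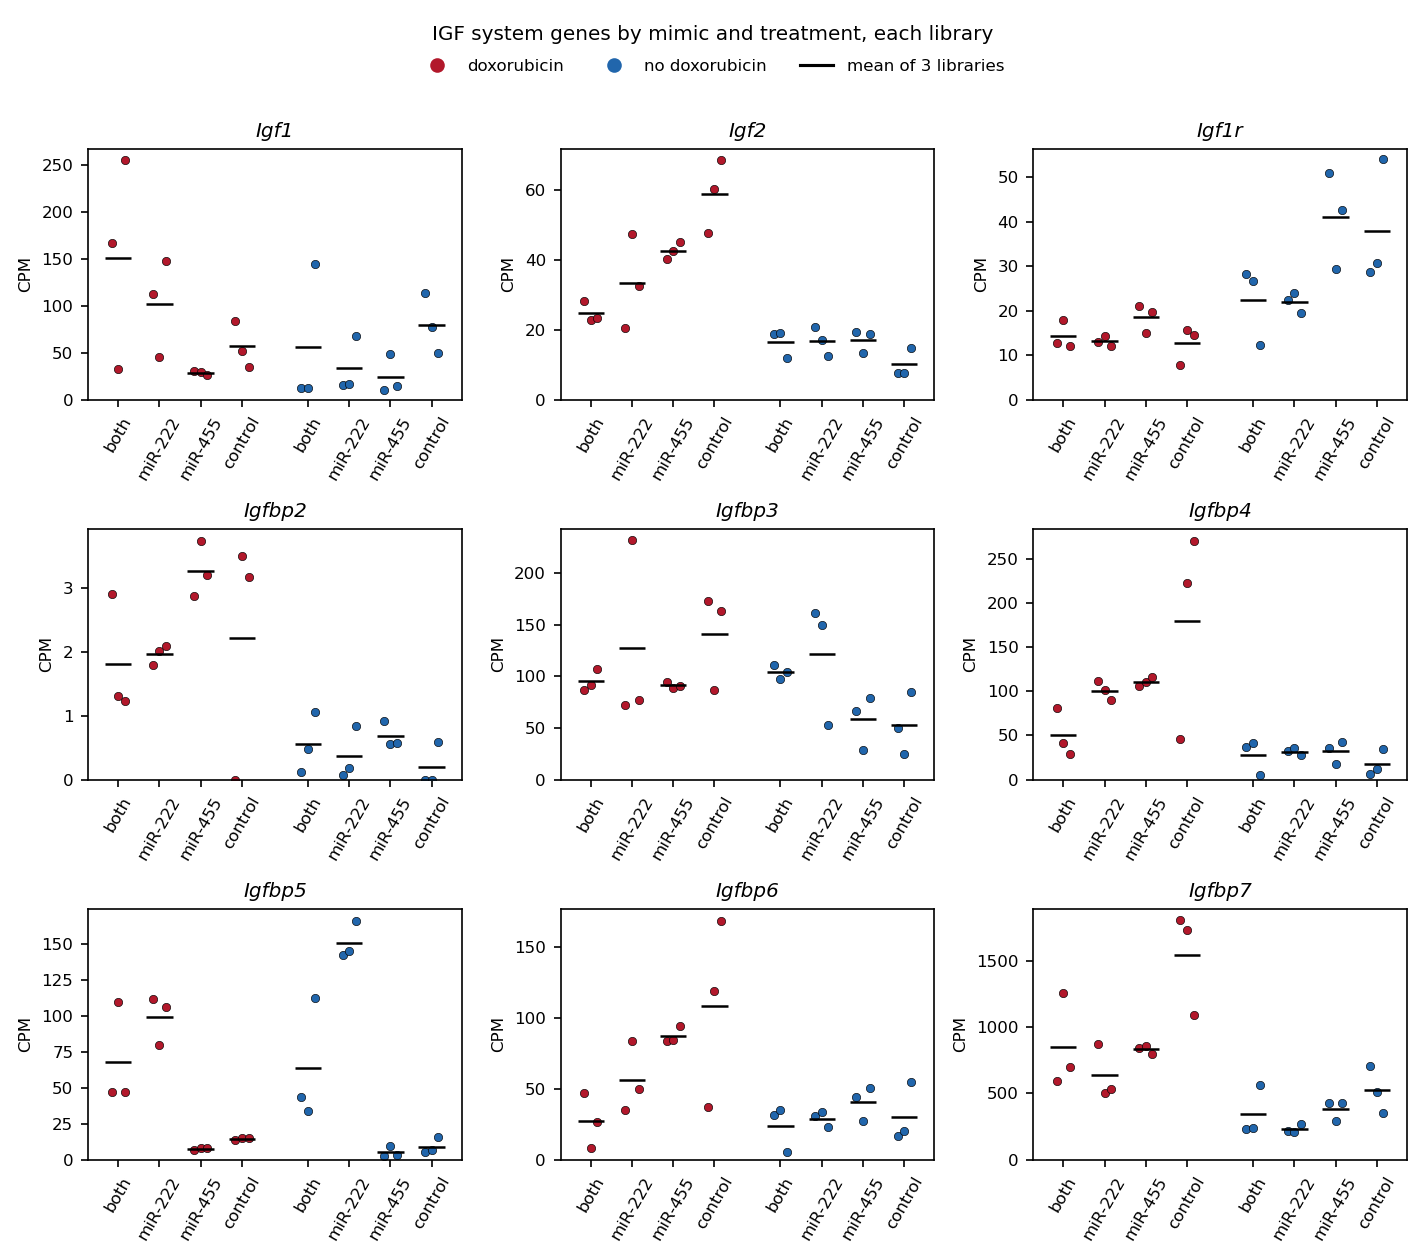
CPM (vertical axis, its own scale for each gene) of the 9 genes in each of the 24 libraries, by mimic condition, with doxorubicin in red and no doxorubicin in blue; each point is a library and each bar the mean of 3. Igfbp5 sits between 34.0 and 166.5 CPM in the 12 libraries with the miR-222 mimic and between 2.52 and 15.4 CPM in the 12 without it.

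With the control mimic, doxorubicin moved 6 of the 9 genes, against 27.5% of all genes tested. Igf2, Igfbp3, Igfbp4, Igfbp6 and Igfbp7 rose and Igf1r fell. The median log2 fold change of the 9 was 1.56, and that of all genes tested, which the scaling keeps small, was 0.02. Under the miR-455 mimic 3 of 9 moved (Igf2 and Igfbp7 up, Igf1r down), against 18.1% of all genes. Under the miR-222 mimic Igf2 and Igfbp7 rose, 2 of 9 against 14.6%. Under both mimics Igfbp7 alone rose, 1 of 9 against 15.1%, a share below that of all genes. Averaged over the 4 mimic conditions, 6 of 9 moved, against 48.1% of all genes: Igf2, Igfbp2, Igfbp4, Igfbp6 and Igfbp7 rose and Igf1r fell.

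**Figure D2:**
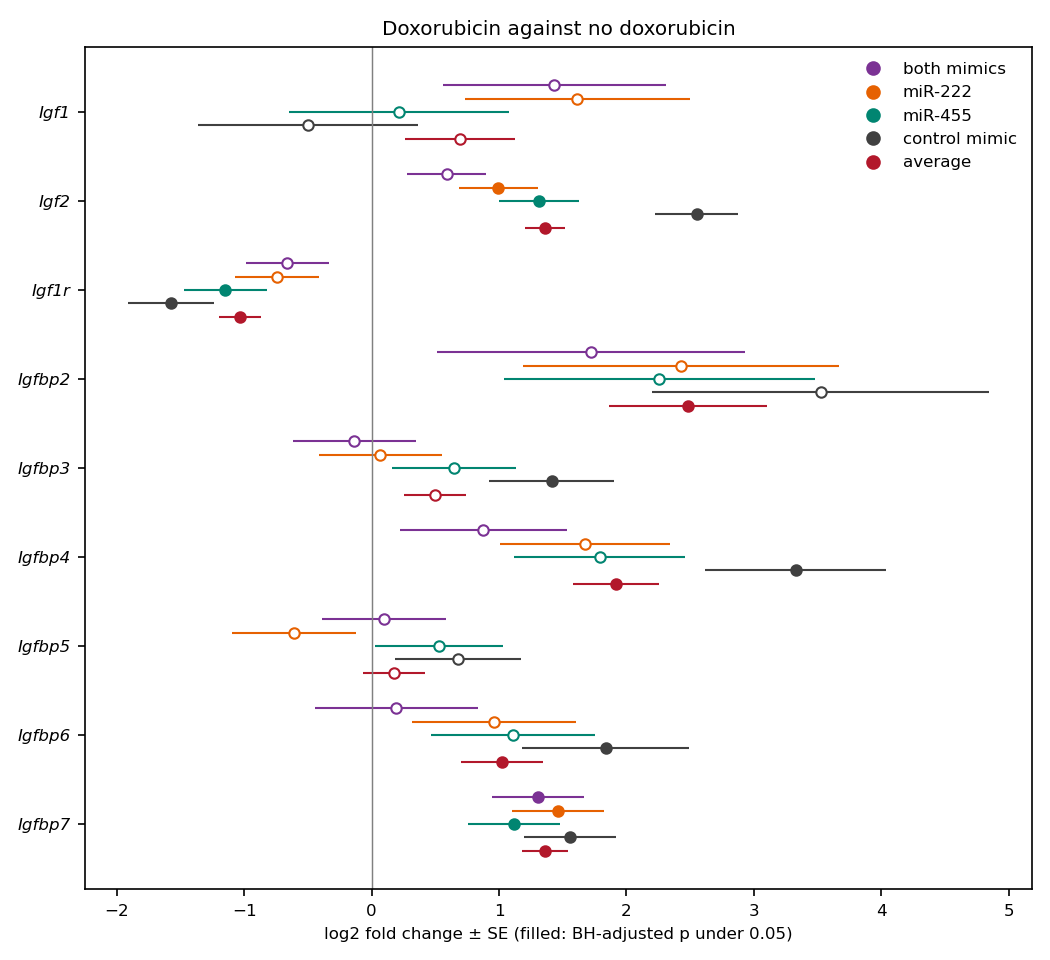
Log2 fold change (horizontal axis, ± SE) of the 9 genes for doxorubicin against no doxorubicin under each mimic condition and on average; filled points have an adjusted p under 0.05. Igf2 runs from 0.59 ± 0.31 under both mimics to 2.55 ± 0.33 under the control mimic, whereas the 4 values of Igfbp7 lie between 1.12 and 1.56.

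Among the ligands, Igf2, the growth factor of fetal and newborn tissues, was the clearest. It had 47.6, 60.5 and 68.8 CPM in doxorubicin with the control mimic, against 7.71, 7.66 and 14.8 CPM in the control mimic without the drug. The groups did not overlap, and the drug raised Igf2 5.86-fold (2.55 ± 0.33, adjusted p = 1.25e-05). With the miR-455 mimic it had 40.2, 42.6 and 45.1 CPM in doxorubicin and 19.3, 13.3 and 18.8 CPM without, again with no overlap (1.32 ± 0.31, adjusted p = 0.00629). With the miR-222 mimic it had 20.5, 47.4 and 32.6 CPM in doxorubicin and 20.9, 17.1 and 12.3 CPM without. Here replicate 1 of the treated cells fell just below the highest untreated library (1.00 ± 0.31, adjusted p = 0.0365). That call was lost when replicate 2 or 3 of doxorubicin with miR-222, or any 1 of the 3 untreated miR-222 libraries, was left out, with adjusted p up to 0.226. With both mimics Igf2 had 28.3, 22.9 and 23.4 CPM in doxorubicin and 18.8, 19.04 and 11.8 CPM without, so the libraries separated, but the difference did not pass the test (0.59 ± 0.31, adjusted p = 0.221). On average over the 4 conditions the log2 fold change was 1.36 ± 0.16 (adjusted p = 5.78e-07), and the 12 treated libraries ran from 20.5 to 68.8 CPM (median 41.4), against 7.66 to 20.9 CPM (median 15.9) in the 12 untreated ones.

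Igf1, the growth factor that growth hormone induces in liver and that many tissues also make locally, varied widely within groups. It had 167, 32.5 and 255 CPM in doxorubicin with both mimics and 11.8, 11.9 and 144 CPM in both mimics without it. Replicate 2 was the low library of the treated group and replicate 3 the high one of the untreated group. With miR-222 it had 113, 45.1 and 148 CPM in doxorubicin and 15.8, 16.6 and 67.6 CPM without, and with miR-455 30.1, 28.9 and 26.4 CPM in doxorubicin and 10.3, 49.1 and 13.9 CPM without. With the control mimic it had 83.7, 51.6 and 35.2 CPM in doxorubicin and 113, 77.5 and 49.4 CPM without. Treated and untreated libraries overlapped under every mimic condition. None of the 4 differences passed the test, and the average over them was 0.69 ± 0.43 (adjusted p = 0.198). Without replicate 3 of both mimics, an untreated library with 12467 genes at 10 or more counts, the value under both mimics was 3.68 (adjusted p = 0.00651) and the average was 1.23 (adjusted p = 0.00674). With all 4 libraries of lowest gene number left out they were 4.14 (adjusted p = 0.00119) and 1.31 (adjusted p = 0.00259).

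In 6 of the 8 groups 1 library stood apart in the level of genes induced by low oxygen. That library had the least Igf1 of its group where the level was high, and the most where it was low. Those genes were 12 known targets, among them Vegfa and Slc2a1, in a list made with earlier results of these data known, and their level is given as the mean log2 CPM. In doxorubicin with both mimics this mean was 6.68, 7.45 and 6.503 in replicates 1 to 3, and the library with the highest mean had the least Igf1. In doxorubicin with miR-222 it was 6.02, 7.67 and 6.28, and again the library with the highest mean had the least Igf1. Both mimics without the drug had 8.09, 8.12 and 5.72 and miR-222 without it 8.13, 8.10 and 5.62, and in each the library with the lowest mean, replicate 3, had the most Igf1. The miR-455 mimic without the drug had 8.30, 6.28 and 8.48, and replicate 2, the low library, had the most Igf1. The control mimic without the drug had 5.45, 5.45 and 7.52, and replicate 3, the high library, had the least Igf1. There Igf1 was graded, at 113, 77.5 and 49.4 CPM, so replicates 1 and 2 differed in Igf1 at the same mean. Doxorubicin with the control mimic had 6.63, 6.03 and 6.74, where the lowest mean, in replicate 2, did not go with the most Igf1, and doxorubicin with miR-455 had 6.94, 6.92 and 6.91 beside 26.4 to 30.1 CPM of Igf1. Other members were also at an end of their group in such libraries. Replicate 3 of the control mimic without the drug had the most of all other members except Igfbp7, of which it had the least. Replicate 3 of both mimics without the drug had the least Igf2, Igf1r, Igfbp4 and Igfbp6 and the most Igfbp2, Igfbp5 and Igfbp7. Directions differed between groups, as replicate 2 of miR-455 without the drug, also a low library, had the least Igfbp7. The part of these genes in the spread of Igf1 and the other members was not tested. None of the 12 passed the test in any mimic comparison against the control mimic. Their median log2 fold change without the drug was still 1.161 for miR-222, 1.499 for miR-455 and 1.094 for both mimics. The mimic and control groups without the drug were thus not balanced in the level of these genes. With the drug the medians were 0.413, 0.191 and 0.25. For doxorubicin on average 3 of the 12 rose and 5 fell, beside 48.1% of all genes called. With the miR-222 mimic present against absent, averaged over 4 pairs of groups, 1 of the 12 fell, beside 15.4% of all genes.

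**Figure D3:**
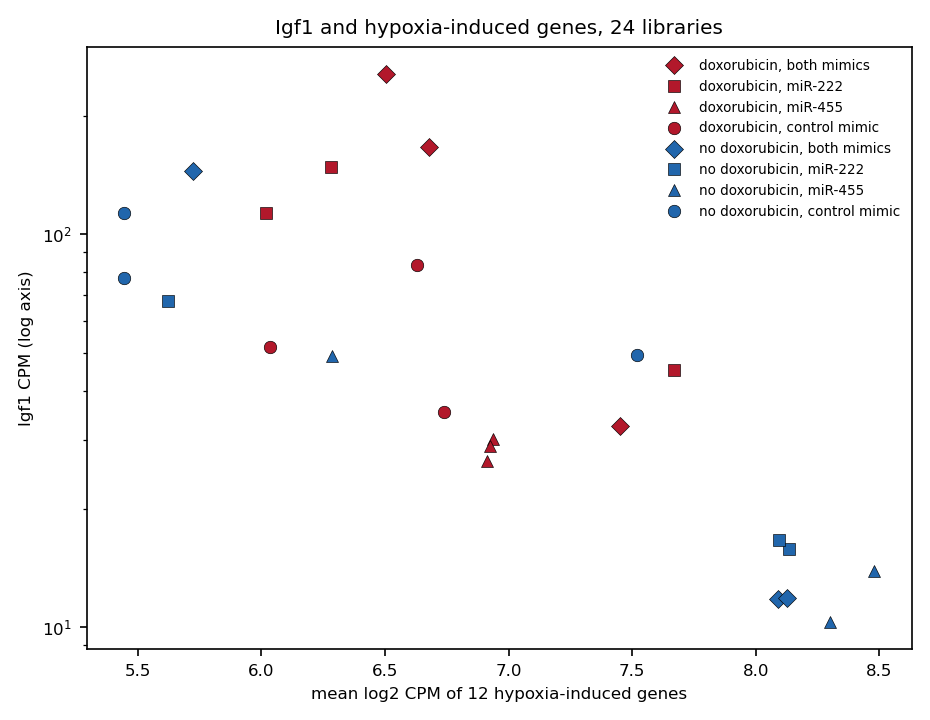
Igf1 CPM (vertical axis, log scale) against the mean level of 12 genes induced by low oxygen (horizontal axis, log2 CPM) in each of 24 libraries; colour gives the treatment and shape the mimic. Libraries of the same group, such as the 3 of both mimics without doxorubicin, lie far apart, at 144.5 CPM of Igf1 beside 5.72 and near 11.8 CPM beside 8.09 and 8.12.

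Igf1r, the receptor for both ligands, fell with doxorubicin. It had 7.87, 15.6 and 14.6 CPM in doxorubicin with the control mimic, against 28.8, 30.7 and 54.1 CPM in the control mimic alone. All 3 treated libraries were below all 3 untreated ones, a 2.98-fold lower level (-1.57 ± 0.33, adjusted p = 0.00165). With miR-455 it had 20.9, 14.96 and 19.6 CPM in doxorubicin and 50.9, 29.4 and 42.6 CPM without, also apart (-1.15 ± 0.33, adjusted p = 0.0198). This call was lost without replicate 2 or 3 of doxorubicin with miR-455 or replicate 1 or 3 of miR-455 alone, with adjusted p up to 0.0962. With miR-222 the libraries separated at 13.0, 14.3 and 12.02 CPM in doxorubicin and 22.4, 23.9 and 19.4 CPM without, but the difference did not pass (-0.74 ± 0.33, adjusted p = 0.146). With both mimics it had 12.8, 17.9 and 11.9 CPM in doxorubicin and 28.2, 26.7 and 12.3 CPM without; replicate 3 of the untreated group lay among the treated libraries (-0.66 ± 0.33, adjusted p = 0.19). Without the 4 libraries with the fewest genes, both values passed, at -0.78 (adjusted p = 0.0106) with miR-222 and -1.17 (adjusted p = 0.00351) with both. Leaving out replicate 3 of both mimics without the drug alone gave -0.94 (adjusted p = 0.0443) with both. On average the receptor was 2.04-fold lower (-1.03 ± 0.16, adjusted p = 3.19e-05).

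Igfbp4, a binding protein that mainly holds ligand back from the receptor and is cut by pappalysins, had the largest change of the 9 among those that passed the test with the control mimic. It had 46.5, 223 and 271 CPM in doxorubicin with the control mimic, against 6.39, 12.4 and 35.1 CPM in the control mimic alone. The groups did not overlap, and replicate 1 of the treated group, the library with the fewest genes of all, was far below the other two (3.33 ± 0.71, adjusted p = 0.00172, 10.0-fold). With miR-222 it had 111, 101 and 90.3 CPM in doxorubicin and 31.96, 35.4 and 27.3 CPM without, and with miR-455 106, 110.2 and 116 CPM in doxorubicin and 36.1, 17.6 and 42.7 CPM without. Both pairs of groups were apart, at 1.68 ± 0.67 (adjusted p = 0.102) and 1.79 ± 0.67 (adjusted p = 0.0698), and neither passed the test. Without the 4 libraries with the fewest genes they were 1.64 (adjusted p = 0.00312) and 1.74 (adjusted p = 0.00181). Leaving out replicate 1 of doxorubicin with the control mimic alone gave 1.79 (adjusted p = 0.0389) with miR-455. Leaving out replicate 3 of both mimics without the drug alone gave 1.68 (adjusted p = 0.0469) and 1.74 (adjusted p = 0.0336). With both mimics it had 81.7, 41.9 and 28.8 CPM in doxorubicin and 36.5, 41.3 and 5.27 CPM without, and the groups overlapped (0.88 ± 0.65, adjusted p = 0.412). On average the log2 fold change was 1.92 ± 0.34 (adjusted p = 8.86e-05).

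Igfbp7, the secreted protein of low IGF affinity also known as angiomodulin, rose with doxorubicin under each of the 4 mimic conditions, and in none did treated and untreated libraries overlap. It had 1810, 1730 and 1090 CPM in doxorubicin with the control mimic, against 708, 512 and 353 CPM in the control mimic alone (1.56 ± 0.36, adjusted p = 0.00326). With miR-222 it had 869, 505 and 529 CPM in doxorubicin and 212, 209 and 269 CPM without (1.46 ± 0.36, adjusted p = 0.00929). With miR-455 it had 843, 855 and 794 CPM in doxorubicin and 429.8, 293 and 424 CPM without (1.12 ± 0.36, adjusted p = 0.0348). With both mimics it had 595, 1256 and 696 CPM in doxorubicin and 232, 239 and 561 CPM without (1.30 ± 0.36, adjusted p = 0.018). On average Igfbp7 was 2.57-fold higher with the drug (1.36 ± 0.18, adjusted p = 3.41e-06). Leaving out 1 library ended the call with miR-222 in 1 case (replicate 1 of doxorubicin with miR-222, adjusted p up to 0.061) and that with both mimics in 3 (replicate 2 of the treated group and replicates 1 and 2 of the untreated one, up to 0.102). The call with miR-455 was lost in 9 of 24 cases, among them each of the 3 treated and each of the 3 untreated miR-455 libraries, with adjusted p up to 0.127.

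Igfbp2, a binding protein abundant in fetal tissue, was scarce, with at most 3.74 CPM in any library. It had 0, 3.50 and 3.17 CPM in doxorubicin with the control mimic, against 0, 0 and 0.581 CPM in the control mimic alone, sums of 119 and 13 counts. Replicate 1 of both groups held no count, and each is among the 4 libraries with the fewest genes (3.52 ± 1.32, adjusted p = 0.0529). Without those 4 libraries the value was 3.46 (adjusted p = 0.0164), without replicate 3 of both mimics alone 3.47 (adjusted p = 0.0442), and without replicate 1 of doxorubicin with the control mimic alone 4.09 (adjusted p = 0.0132). Replicate 3 of the control mimic held all 13 counts of its group, so without it the fold has no base. The treated libraries lay above the untreated ones with no overlap under the other conditions: 1.79, 2.02 and 2.10 CPM in doxorubicin and 0.0732, 0.175 and 0.835 CPM without for miR-222, and 2.88, 3.74 and 3.21 CPM in doxorubicin and 0.918, 0.553 and 0.570 CPM without for miR-455. For both mimics it had 2.91, 1.31 and 1.23 CPM in doxorubicin and 0.116, 0.483 and 1.05 CPM without. None of these 3 passed the test alone (adjusted p = 0.217, 0.223 and 0.377), and the average over the 4 conditions did (2.48 ± 0.62, adjusted p = 0.00252, 5.596-fold). All 3 passed once the 4 libraries of lowest gene number were left out, at 2.39 (adjusted p = 0.0327) for miR-222, 2.21 (adjusted p = 0.0366) for miR-455 and 2.75 (adjusted p = 0.049) for both mimics.

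Igfbp6, the binding protein that prefers IGF2, had 37.1, 119 and 169 CPM in doxorubicin with the control mimic, against 16.3, 20.1 and 54.6 CPM in the control mimic alone. Replicate 1 of the treated group lay below the highest untreated library (1.84 ± 0.66, adjusted p = 0.0426). This call was lost in 17 of 24 fits that each left out 1 library, with adjusted p up to 0.176. Treated and untreated libraries were apart with miR-222, at 35.1, 83.9 and 50.0 CPM in doxorubicin and 30.7, 33.2 and 22.8 CPM without. They were also apart with miR-455, at 83.8, 84.4 and 94.4 CPM in doxorubicin and 44.3, 27.0 and 50.2 CPM without, but neither passed the test (0.96 ± 0.64 and 1.11 ± 0.64, adjusted p = 0.372 and 0.262). Leaving out the 4 libraries of lowest gene number, the value with miR-455 passed (1.06, adjusted p = 0.0263). Both mimics gave 47.3, 8.15 and 26.3 CPM in doxorubicin and 31.2, 34.9 and 5.40 CPM without, which overlapped (0.19 ± 0.64). The average rise passed (1.03 ± 0.32, adjusted p = 0.0122).

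Igfbp3, the main carrier of circulating IGF, had 173, 86.3 and 164 CPM in doxorubicin with the control mimic, against 50.2, 24.2 and 84.4 CPM in the control mimic alone. The groups did not overlap, by a margin of 86.3 over 84.4 CPM, and the rise passed (1.41 ± 0.49, adjusted p = 0.0381). It was lost in 9 of 24 fits that left out 1 library (adjusted p up to 0.185), and leaving out the 4 libraries with the fewest genes ended it too (1.13, adjusted p = 0.175). With miR-222 it had 72.3, 232 and 77.2 CPM in doxorubicin and 162, 149 and 53.0 CPM without, and with miR-455 94.5, 88.6 and 90.4 CPM in doxorubicin and 66.8, 29.0 and 79.0 CPM without. With both mimics it had 86.9, 91.4 and 107 CPM in doxorubicin and 111, 97.8 and 104 CPM without. Of these, the miR-455 libraries alone were apart, and neither they (0.65 ± 0.48, adjusted p = 0.409) nor the average over the 4 conditions passed the test (0.50 ± 0.24, adjusted p = 0.0963).

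The drug values of the 9 genes stood beside those of the marker lists. For doxorubicin with the control mimic, fibroblast markers summed to 23200 to 52900 CPM in treated libraries, against 19200 to 29800 CPM in untreated ones, and 2 of 9 tested rose and 1 fell. Smooth muscle and pericyte markers summed to 2120 to 4590 CPM in treated libraries and 3250 to 4040 CPM in untreated ones, with 2 of 9 higher and 1 lower. On average over the 4 mimic conditions 5 of these 9 were higher and 2 lower, with a median log2 fold change of 0.58. Endothelial markers summed to 58.8 to 86.0 CPM in treated libraries and 68.9 to 77.2 CPM in untreated ones, with 1 of 8 higher, 1 lower and a median log2 fold change of 1.32. Cardiomyocyte markers summed to 34900 to 38800 CPM in treated libraries and 24800 to 28800 CPM in untreated ones, with 3 of 9 higher and none lower. With miR-455 2 of these 9 were higher and 3 lower, and on average 3 were higher and 2 lower. The average gave 3 higher and 0 lower of 9 fibroblast markers, and 3 higher and 1 lower of 8 endothelial ones. Of all genes tested, 27.5% were called with the control mimic, 18.1% with miR-455 and 48.1% on average. The part of these cell types in the IGF values was not tested.

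Each mimic condition moved 0 to 2 of the 9 genes. Without doxorubicin, the miR-222 mimic against the control mimic moved 2 of 9 (Igfbp5 up, Igfbp7 down), against 8.97% of all genes tested. With doxorubicin it moved the same 2 genes in the same directions, against 3.95%. Both mimics moved 1 of 9 without the drug (Igfbp5 up), against 7.06%, and 2 of 9 with it (Igfbp5 up, Igf2 down), against 5.55%. The miR-455 mimic moved 0 of 9 without the drug, against 4.72% of all genes, and 0 of 9 with it, against 2.5%. Each of these comparisons had 1 gene at an unadjusted p under 0.05, Igf2 without the drug and Igfbp7 with it, and DESeq2 called none of the 9 in either. The 3 mimic comparisons within a treatment share the 3 control mimic libraries.

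**Figure D4:**
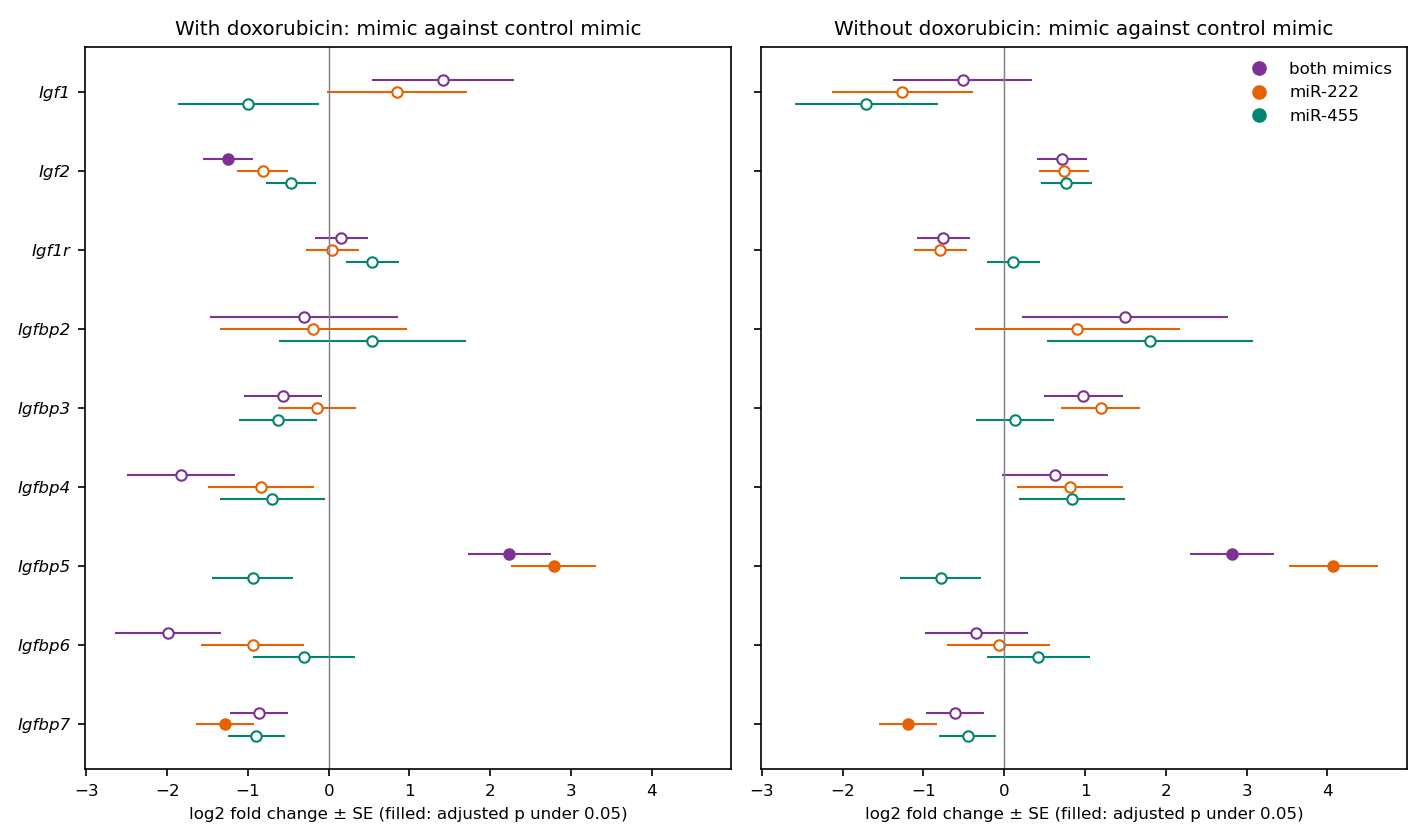
Log2 fold change (horizontal axis, ± SE) of the 9 genes for each mimic condition against the control mimic, with doxorubicin (left panel) and without (right panel); filled points have an adjusted p under 0.05. Igfbp5 stands at 2.24 to 4.07 for the 2 conditions that hold the miR-222 mimic and at -0.94 and -0.79 for miR-455 alone.

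Igfbp5, a binding protein that attaches to extracellular matrix and is linked to fibrosis and muscle differentiation, was the gene that moved most with a mimic. Without the drug it had 142, 145 and 166 CPM with miR-222, against 4.90, 6.74 and 15.4 CPM with the control mimic. The lowest miR-222 library was far above the highest control library, a 16.8-fold rise (4.07 ± 0.55, adjusted p = 0.000289). With doxorubicin it had 112, 80.1 and 106 CPM with miR-222, against 13.4, 15.1 and 14.7 CPM with the control mimic, a 6.89-fold rise with no overlap (2.78 ± 0.52, adjusted p = 0.00311). Both mimics gave 43.9, 34.0 and 113 CPM without the drug, 7.05-fold above the control mimic (2.82 ± 0.52, adjusted p = 0.0033). With the drug, both mimics gave 46.8, 109.7 and 47.4 CPM, 4.71-fold above the control mimic (2.24 ± 0.51, adjusted p = 0.0114). The high library with both mimics was replicate 3 without the drug and replicate 2 with it, 2 of the 4 libraries with the fewest genes. Without those 4 libraries the rise with both mimics was 1.77 (adjusted p = 0.0121) without the drug and 1.67 (adjusted p = 0.0241) with it, while leaving out replicate 3 alone gave 2.08 (adjusted p = 0.00713) without the drug. That with miR-222 was 3.74 (adjusted p = 0.000142) without the drug and 2.73 (adjusted p = 0.00101) with it. The call with both mimics and the drug was lost without replicate 2 of that group (adjusted p up to 0.0743). Fits of the compared groups alone also lost the calls with both mimics, with edgeR adjusted p = 0.123 with the drug and 0.173 without. They kept those with miR-222.

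With miR-455 alone Igfbp5 had 6.42, 8.18 and 7.94 CPM with doxorubicin and 2.52, 9.72 and 3.29 CPM without. With doxorubicin all 3 miR-455 libraries lay below all 3 control mimic libraries, and neither difference passed the test (-0.94 ± 0.50, adjusted p = 0.51 with the drug; -0.79 ± 0.50, adjusted p = 0.322 without). Without replicate 2 of miR-455, which had the most Igfbp5 of its group, the value without the drug was -1.65 (adjusted p = 0.0423). Without the drug all 3 libraries with both mimics lay below all 3 with miR-222 alone, at 34.0 to 112.6 CPM against 142.4 to 166.5 CPM. That difference was -1.25 ± 0.49 (unadjusted p = 0.0192) and did not pass after adjustment (adjusted p = 1), as for all genes tested (0% called). With the drug it was -0.55 ± 0.49 (adjusted p = 0.623, 0.161% of all genes called). DESeq2 called none of the 9 genes in either of these comparisons, and 1 and 0 of the 9 had an unadjusted p under 0.05 by edgeR.

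In order of mean level, Igfbp5 had 151 ± 13.2 CPM (SD, n = 3) with miR-222, 99.3 ± 16.9 CPM with miR-222 and doxorubicin, 68.0 ± 36.2 CPM with both mimics and doxorubicin, and 63.5 ± 42.8 CPM with both mimics. Then came 14.4 ± 0.872 CPM with the control mimic and doxorubicin, 9.001 ± 5.58 CPM with the control mimic, 7.51 ± 0.955 CPM with miR-455 and doxorubicin, and 5.18 ± 3.95 CPM with miR-455. Neighbours in this order had overlapping libraries in all but 2 cases: the first and second groups, and the step from both mimics to the control mimic with doxorubicin. For doxorubicin Igfbp5 passed the test under none of the 4 mimic conditions, and the average was 0.18 ± 0.25 (adjusted p = 0.585). Under miR-222 the treated libraries, at 80.1 to 111.8 CPM, lay below the untreated ones, at 142.4 to 166.5 CPM (-0.61). A fit of those groups alone, in which more genes were called in general, called this fall (edgeR adjusted p = 0.026). DESeq2 did not call it (-0.57, adjusted p = 0.497) and gave 0.16 to 0.71 under the other conditions, also not called.

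After these values were seen, 2 comparisons were added that set the presence of each mimic against its absence over 4 pairs of groups. With the miR-222 mimic present, 3 of the 9 genes moved, against 15.4% of all genes: Igfbp5 rose (3.41 ± 0.27, adjusted p = 5.2e-08, 10.6-fold) and Igf1r and Igfbp7 fell. The 12 libraries with the mimic ran from 34.0 to 166.5 CPM of Igfbp5 (median 107.9), and the 12 without from 2.52 to 15.4 CPM (median 8.06). Of the 14303 genes tested, 12 had a smaller p in that comparison and 22 a larger log2 fold change. With the miR-455 mimic present 1 of 9 moved, against 5.3%: Igfbp5 fell (-0.88 ± 0.25, adjusted p = 0.0404). Leaving out any 1 of 17 of the 24 libraries ended that call, with adjusted p up to 0.0865.

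Igfbp7 was lower with the miR-222 mimic. Without the drug it had 212, 209 and 269 CPM with miR-222, against 708, 512 and 353 CPM with the control mimic, and with the drug 869, 505 and 529 CPM with miR-222 and 1810, 1730 and 1090 CPM with the control mimic. In neither case did the libraries overlap (-1.19 ± 0.36, adjusted p = 0.0435 without; -1.28 ± 0.36, adjusted p = 0.0497 with). Both adjusted p lay near the threshold, and leaving out 1 library ended the call in 12 of 24 fits without the drug and in 19 of 24 with it (adjusted p up to 0.187 and 0.228). The comparison of the miR-222 mimic present against absent gave -0.65 ± 0.18 (adjusted p = 0.0164). The miR-222 libraries ran from 209 to 1256 CPM (median 517) there and the others from 293 to 1810 CPM (median 751). Fibroblast markers moved as well for miR-222 against the control mimic. Without the drug 3 of 9 tested were lower, beside 8.97% of all genes called, and with it 2 of 9, beside 3.95%. For the mimic present against absent 2 of 9 were higher and 4 lower, beside 15.4%. Of the cardiomyocyte markers, none was higher, and 1 of 9 was lower without the drug, 1 with it and 3 with the mimic present. The fibroblast markers summed to 16600 to 18600 CPM with miR-222, against 19200 to 29800 CPM with the control mimic, without the drug. With it the sums were 25000 to 27800 CPM and 23200 to 52900 CPM. Smooth muscle and pericyte markers summed to 1510 to 2400 CPM with miR-222, against 3250 to 4040 CPM with the control mimic, without the drug, and 2 of 9 were lower. With the drug their sums were 1590 to 3150 CPM and 2120 to 4590 CPM, and 0 of 9 passed the test. Endothelial markers summed to 47.1 to 52.3 CPM with miR-222 and 68.9 to 77.2 CPM with the control mimic without the drug, where 1 of 8 was higher and none lower. With the drug their sums were 44.6 to 64.3 CPM and 58.8 to 86.0 CPM, with 1 of 8 lower. The part of these cell types in the Igfbp7 values was not tested.

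Igf2 fell with both mimics under doxorubicin, where it had 28.3, 22.9 and 23.4 CPM with both mimics, against 47.6, 60.5 and 68.8 CPM with the control mimic (-1.24 ± 0.31, adjusted p = 0.0214). The libraries were apart, as they were for miR-222 and for miR-455, whose differences did not pass (-0.82 ± 0.31, adjusted p = 0.172 for miR-222; -0.47 ± 0.31, adjusted p = 0.652 for miR-455). The call for both mimics was lost without replicate 2 or 3 of either group, with adjusted p up to 0.0824. Without the drug all 3 mimic conditions had positive values that did not pass the test, from 0.72 ± 0.31 for both mimics to 0.77 ± 0.31 for miR-455. Without replicate 3 of the control mimic, which had the most Igf2 of its group, miR-222 gave 1.11 (adjusted p = 0.0393) and miR-455 gave 1.14 (adjusted p = 0.0433). Igf1r had an unadjusted p under 0.05 without the drug for miR-222 (-0.79 ± 0.33, adjusted p = 0.126) and for both mimics (-0.75 ± 0.33, adjusted p = 0.169). The value for miR-222 passed when the 4 libraries of lowest gene number were left out (-0.99, adjusted p = 0.00886). With miR-222 present against absent Igf1r fell (-0.50 ± 0.16, adjusted p = 0.0431), a call lost in 18 of 24 fits that left out 1 library. Igfbp4 and Igfbp6 under doxorubicin stood at -1.83 ± 0.67 (adjusted p = 0.119) and -1.99 ± 0.66 (adjusted p = 0.0834) for both mimics against the control mimic. Without the 4 libraries with the fewest genes both passed, at -2.15 (adjusted p = 0.00676) and -1.96 (adjusted p = 0.00912), and leaving out replicate 1 of doxorubicin with the control mimic alone had the same outcome, at -2.28 (adjusted p = 0.0393) and -2.39 (adjusted p = 0.0351). Igfbp6 also passed there without replicate 1 of doxorubicin with both mimics (-2.65, adjusted p = 0.0384) or without replicate 3 of both mimics alone (-1.96, adjusted p = 0.0405). For both mimics against the control mimic without the drug, leaving out replicate 3 of both mimics gave -1.18 (adjusted p = 0.0246) for Igfbp7, beside -0.61 ± 0.36 (adjusted p = 0.32) with all libraries. In the same fit Igf1 stood at -2.78 (adjusted p = 0.0285), beside -0.51 ± 0.86 (adjusted p = 0.772) with all libraries. Leaving out all 4 libraries of lowest gene number, these were -0.93 (adjusted p = 0.0288) for Igfbp7 and -2.47 (adjusted p = 0.0265) for Igf1. With doxorubicin the same fit gave -1.12 (adjusted p = 0.0191) for Igfbp7 with both mimics, beside -0.86 ± 0.36 (adjusted p = 0.171) with all libraries, and -1.36 (adjusted p = 0.039) for Igfbp6 with miR-222, beside -0.94 ± 0.64 (adjusted p = 0.522). For miR-222 present against absent it gave -0.82 (adjusted p = 0.00502) for Igfbp6, beside -0.86 ± 0.32 (adjusted p = 0.0744). In that fit the shares of all genes called were 25.7% for both mimics without the drug, 13% for both mimics with it, 8.38% for miR-222 with it and 29.7% for miR-222 present.

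Whether a mimic changed the response to doxorubicin was tested as the difference between effects. For miR-222 minus the control mimic 0 of the 9 genes passed, against 0.0489% of all genes, and 1 had an unadjusted p under 0.05. For miR-455 minus the control mimic 0 of 9 passed, against 0% of all genes (0 of 14303), with 1 at an unadjusted p under 0.05. For both mimics minus the control mimic 0 of 9 passed, against 0.0559%, with 3 at an unadjusted p under 0.05. In all 3 Igf2 was among the genes with an unadjusted p under 0.05, at -1.56 ± 0.44, -1.24 ± 0.44 and -1.96 ± 0.44, with adjusted p = 0.209, 0.358 and 0.081. DESeq2 called Igf2 for both mimics (adjusted p = 0.0046) and no other member in these 3 comparisons. Without the 4 libraries with the fewest genes edgeR's difference for Igf2 was -2.01 (adjusted p = 0.0228), while 11% of all genes passed in that fit. The same fit gave -2.82 (adjusted p = 0.0199) for Igfbp4 and 4.76 (adjusted p = 0.0195) for Igf1. Leaving out replicate 3 of both mimics without the drug alone gave -2.08 (adjusted p = 0.0204) for Igf2, -2.87 (adjusted p = 0.0468) for Igfbp4 and 4.25 (adjusted p = 0.0336) for Igf1. For Igfbp5 the difference for miR-222 was -1.29 ± 0.69 (adjusted p = 0.59).

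Effects of both mimics beyond the sum of the single ones were tested on the log2 scale. The groups with both mimics also differed from the others in total mimic dose. Without doxorubicin 0 of 9 genes passed, against 0.014% of all genes, and 0 had an unadjusted p under 0.05. With doxorubicin 0 of 9 passed, against 0.0419%, and 1 had an unadjusted p under 0.05: Igfbp7, at 1.31 ± 0.50 (adjusted p = 0.351). DESeq2 called none of the 9 in either. Igfbp5 stood at -0.46 ± 0.70 without the drug and 0.39 ± 0.69 with it, so its level with both mimics differed from the sum of the single effects by less than 1 SE in each case.

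Igfbp2 and Igfbp5 are neighbours in the rat genome, with no other protein-coding gene annotated between them in RefSeq (GRCr8). Igfbp5 rose with the miR-222 mimic and did not pass the test for doxorubicin, and Igfbp2 rose with doxorubicin on average and stood at -0.11 ± 0.63 (adjusted p = 0.951) for the miR-222 mimic present against absent. Their promoter windows of 300 bases around the start of the gene, from RefSeq (GRCr8), are shown because the pair differed in this way. Capitals mark matches to 4 motifs searched on both strands: the TATA box TATAAA, the GC box GGGCGG, the forkhead core GTAAACA and the hypoxia response core ACGTG, which overlaps itself in CACGTG.
Igfbp2, chr9:81864561-81864860, plus strand: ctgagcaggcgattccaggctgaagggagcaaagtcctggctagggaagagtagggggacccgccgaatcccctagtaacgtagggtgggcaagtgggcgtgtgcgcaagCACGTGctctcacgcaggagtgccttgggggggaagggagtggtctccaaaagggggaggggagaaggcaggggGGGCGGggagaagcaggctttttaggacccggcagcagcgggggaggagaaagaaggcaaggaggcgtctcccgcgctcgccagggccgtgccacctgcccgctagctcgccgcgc
Igfbp5, chr9:81914138-81914437, minus strand: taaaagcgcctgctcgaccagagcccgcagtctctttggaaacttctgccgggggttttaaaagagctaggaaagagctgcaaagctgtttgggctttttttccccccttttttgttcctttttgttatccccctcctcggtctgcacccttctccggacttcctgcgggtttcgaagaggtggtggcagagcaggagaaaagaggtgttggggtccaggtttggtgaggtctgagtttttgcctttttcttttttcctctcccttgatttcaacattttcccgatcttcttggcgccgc
The Igfbp2 window held 1 GC box and 2 hypoxia response cores, both in 1 CACGTG, and the Igfbp5 window none of the 4 motifs. The GC content was 66.7% for Igfbp2 and 50.7% for Igfbp5, beside a median of 51.7% over 33469 rat windows. Over all 33469 windows 14.2% held a TATA box, 33.1% a GC box, 3.78% a forkhead core and 19.3% a hypoxia response core. Windows matched all 9 genes, with 2 for Igf2. The TATA box was found in that of Igfbp4, the forkhead core in that of Igfbp6, and GC boxes in those of Igf1r, Igf2, Igfbp2 and Igfbp7. The hypoxia response core was found for Igf1r, Igfbp2, Igfbp7 and 1 of the windows of Igf2, and not for Igf1. A match is a description of these letters and not a binding site.

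The 3 genes most like each member were found by the Pearson correlation of log2 CPM over the 24 libraries, among tested genes with a mean of at least 5 CPM. These libraries share their groups and their differences in depth, so the values are descriptions. Igfbp4 was most like March2 (0.984), Aldh2 (0.972) and Cst3 (0.971), and Igfbp7 most like Cmpk1 (0.967), Anxa5 (0.959) and Dstn (0.953). Igf2 was most like Nudt3 (0.945), Rps28 (0.940) and Hadha (0.939), and Igfbp6 most like Shc1 (0.942), Cd99 (0.934) and Uqcr11 (0.927). Igf1 was most like Fam91a1 (0.943), Glce (0.939) and Klf3 (0.902), and Igf1r most like Atxn1 (0.937), Samd4a (0.919) and Ccn1 (0.918). Igfbp5 was most like Cacna1a (0.841), Cacna2d2 (0.841) and Tmem62 (0.838), the first and second of which encode subunits of voltage-gated calcium channels. For Igfbp2 the genes were Emilin2 (0.883), Hist2h3c2 (0.871) and Dagla (0.851), and for Igfbp3 they were Pla2g7 (0.851), Lpl (0.836) and Hrc (0.795). No member was among the 3 genes most like another member.

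Other genes of the pathway were read from a list of 45, of which 43 were in the table and 40 were tested. For doxorubicin on average 8 of the 40 rose and 17 fell, beside 48.1% of all genes called and a median log2 fold change of -0.19 against -0.02 for all genes. Among carriers, proteases and inhibitors 2 of 6 rose and 1 fell. Htra1, a secreted protease that cuts binding proteins, rose (1.07 ± 0.10, adjusted p = 5.13e-08). Among the 3 further receptors Igf2r, which clears IGF2 from the surface, rose (1.11 ± 0.16, adjusted p = 9.23e-06) and the insulin receptor Insr fell (-1.65 ± 0.12, adjusted p = 7.27e-10). Of the 4 RNA regulators and imprinted genes none rose and 2 fell.

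Downstream, 1 of 7 adaptors rose and 4 fell for doxorubicin on average. Grb10 (-1.19 ± 0.14, adjusted p = 4.56e-07) and Grb14 (-2.58 ± 0.29, adjusted p = 4.92e-07), which bind and inhibit the receptors, fell, as did the exchange factor Sos1 (-0.86 ± 0.14, adjusted p = 4.22e-05). In the kinase branch 3 of 15 rose and 6 fell. Pik3ca, the catalytic subunit of phosphoinositide 3-kinase, fell (-0.95 ± 0.14, adjusted p = 1.12e-05), and Tsc2, a brake on mTOR, rose (0.61 ± 0.09, adjusted p = 1.21e-05). Of 5 forkhead factors and their atrophy targets 1 rose and 3 fell. The muscle ubiquitin ligases Trim63 (-3.28 ± 0.21, adjusted p = 2.14e-10) and Fbxo32 (-2.46 ± 0.23, adjusted p = 3.59e-08) were the lowest of these 5.

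**Figure D5:**
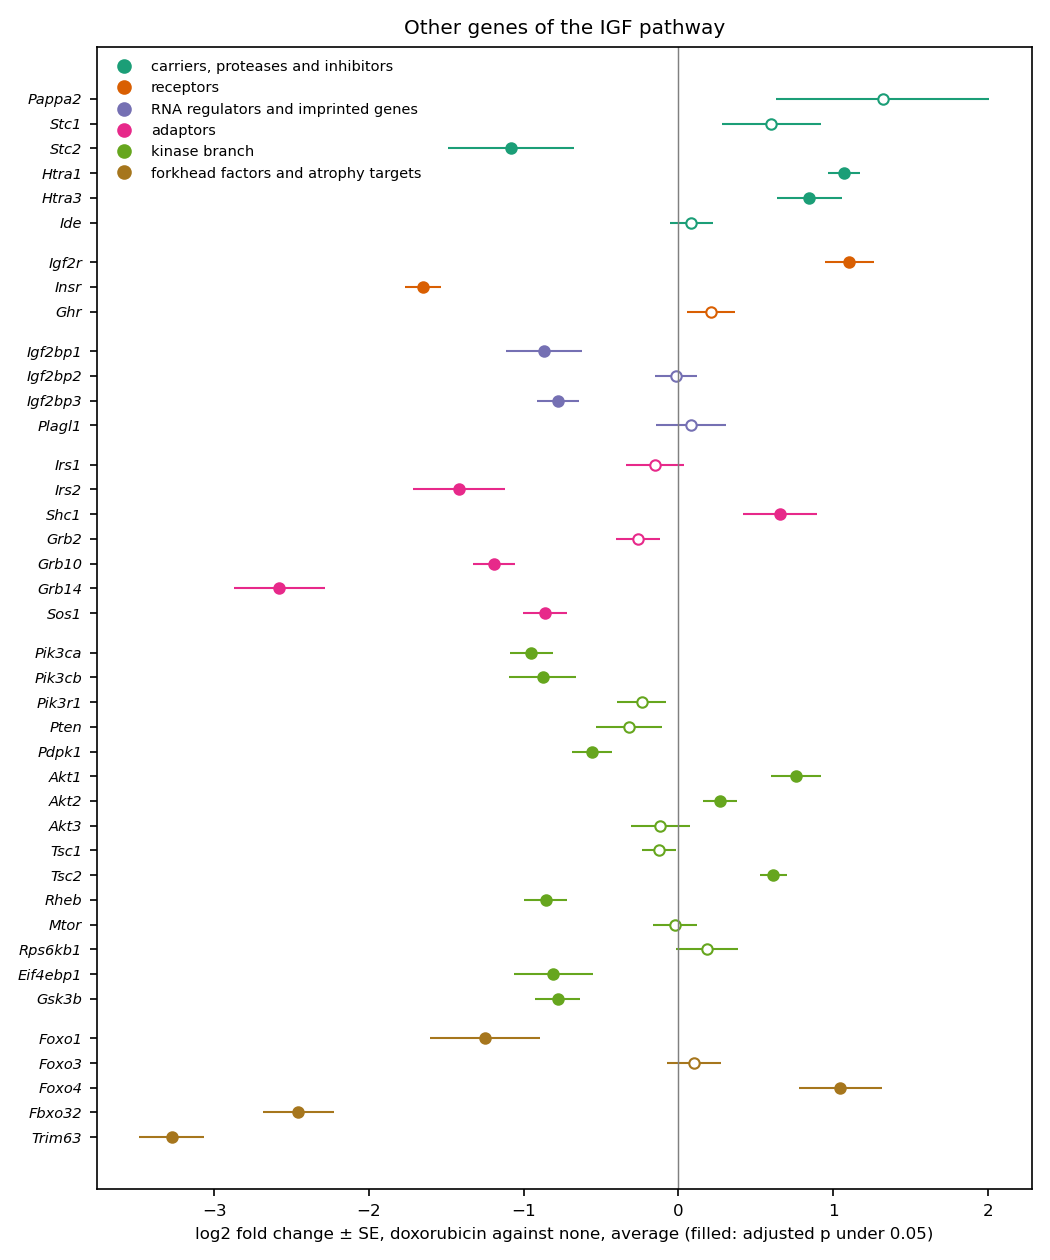
Log2 fold change (horizontal axis, ± SE) of the 40 tested pathway genes for doxorubicin against none, averaged over the 4 mimic conditions and coloured by role; filled points have an adjusted p under 0.05. Of the 40, 8 are filled on the right of 0 and 17 on the left, with Trim63 lowest at -3.28.

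For miR-222 against the control mimic 3 of the 40 pathway genes rose and 2 fell without doxorubicin, against 8.97% of all genes called, and 0 rose and 2 fell with it, against 3.95%. For both mimics 1 rose and 3 fell without the drug, against 7.06%, and 0 rose and 2 fell with it, against 5.55%. For miR-455 1 rose and 1 fell without the drug, against 4.72%, and none moved with it, against 2.5%. Genes of the rule that moved for a mimic included Fbxo32, which rose without the drug with miR-222 (2.23 ± 0.45, adjusted p = 0.00573) and with both mimics (1.90 ± 0.45, adjusted p = 0.0153). Trim63 rose with miR-222 there (1.30 ± 0.38, adjusted p = 0.0406). Htra1 fell under doxorubicin with miR-222 (-1.04 ± 0.21, adjusted p = 0.00459) and with both mimics (-1.30 ± 0.21, adjusted p = 0.00057). Plagl1, an imprinted zinc finger gene that activates Igf2 in mouse, was singled out after its values were seen. It fell without the drug with miR-222 (-2.75 ± 0.48, adjusted p = 0.00199) and with both mimics (-1.55 ± 0.46, adjusted p = 0.0476). Igf2 had positive values in these comparisons, which did not pass the test with all libraries. A link between Plagl1 and Igf2 was not tested.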

How the data were processed

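Messenger RNA of 24 libraries was measured by sequencing, with 17311955 to 25750311 counts per library. The deposited table holds the authors' expected counts per gene symbol and is named as filtered, with no rule stated. Salmon, DESeq2 and the build Rnor_6.0 are named in the submitters' processing notes without versions or roles. Rounding changed 38406 values (7.35%) that had a fractional part. How reads of overlapping or antisense genes were assigned is not given in the sources used here.

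In R 4.3.3, edgeR 4.0.16 was run with filterByExpr by group (14303 of 21767 symbols kept), trimmed-mean-of-M-values scaling, a means model of 8 groups over 24 libraries, the quasi-likelihood F test and Benjamini-Hochberg adjustment within each comparison at 0.05. The SE is the size of the log2 fold change over the square root of its F statistic. The code was tested on simulated data. The members, the pathway, marker and hypoxia lists and the tests were chosen with earlier results of these data known. Alternatives were DESeq2 1.42.0 and its size factors, no filter, at least 1 CPM in 3 libraries, the compared groups alone, a replicate block, leaving out each library, and leaving out 4 libraries, those where the number of genes with 10 or more counts was lowest. The 2 comparisons of mimic presence and the 2 of both mimics against miR-222 were added after the Igfbp5 values were seen.

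All 9 members are named. Pathway genes are named that moved for doxorubicin on average or in at least 2 other comparisons, up to 10 by smallest p. Plagl1 was named outside this limit, after its values were seen. For each member the 3 most correlated genes are named. Sequences are from RefSeq GRCr8, another build than that of the counts. Ttn, Col1a2, Pecam1 and Itgam of the marker lists were not analysed here.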

Additional observations from a re-analysis of the deposited data

How the results depend on the processing

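Of 620 counts of members called under 31 alternatives, 527 stayed within 1.5 times the main count. The counts for doxorubicin with the control mimic and on average were among them under every alternative. Fitting only the groups compared gave 5, 6 and 0 members for doxorubicin with miR-222, miR-455 and both mimics, 1 and 0 without the drug for miR-222 and both mimics, and 1 and 0 with it; over all genes these doxorubicin fits called 4785 of 13278, 5419 of 13272 and 5 of 13028. Leaving out the 4 libraries with the fewest genes gave 5, 6 and 4 for doxorubicin with miR-222, miR-455 and both mimics, 3 and 5 for both mimics without and with the drug, and 3 for the doxorubicin effect with both mimics minus that with the control mimic, while the shares of all genes rose to 33.9%, 38.3%, 32.9%, 25.7%, 13% and 11%. DESeq2 gave 4 for both mimics with the drug and 1 for that difference. For miR-222 no filter gave 1 without and 1 with the drug, and with the drug DESeq2 size factors and the 1 CPM filter gave 1 each. The cause of these shifts was not tested. Leaving out each library gave 4 to 7 members for doxorubicin with the control mimic, 1 to 3 with miR-222, 1 to 4 with miR-455, 0 to 3 with both mimics and 6 to 7 on average. It gave 1 to 3 for miR-222, 0 to 2 for miR-455 and 1 to 3 for both mimics without the drug, 1 to 2 for miR-222 and 0 to 4 for both mimics with it, 0 to 3 for the difference with both mimics, and 2 to 4 and 0 to 1 for miR-222 and miR-455 present. Of 1767 single values 1563 kept their call, 142 lost it, 62 gained one and 0 reversed.

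Deviations from group means correlated at -0.029 on average (-0.581 to 0.453) over 84 pairs with the same replicate number in different groups. Over 168 pairs with different numbers the mean was 0.02 (-0.53 to 0.63). The deviations within a group cancel out, so these means depend on each other. Whether libraries with the same number shared a culture was not tested. With a replicate block 1 member was called for doxorubicin with miR-222, 1 for miR-222 without the drug and 1 for miR-222 with it, and doxorubicin with the control mimic had 5. Doxorubicin on average kept 6.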
